A study of Mus musculus with 4 samples.

Results

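The genes described are the phagocyte NADPH oxidase subunits Cyba, Cybb, Ncf1, Ncf4 and Rac2, the dual oxidase Duox2 and the superoxide dismutases Sod1, Sod2 and Sod3. They were taken by symbol from the gene table of an RNA sequencing series, and all 9 were found among its 24394 usable gene rows. The series holds 4 C57BL/6 mice aged 8 weeks. WT-139 and WT-140 are the 2 Usp25+/+ mice, KO-826 and KO-850 the 2 Usp25-/- mice, and values in a row follow this order. Every mouse had been given 2.5% dextran sulfate sodium (DSS), a compound that injures the gut lining, for 5 days and then plain water for 2 days. No mouse without DSS is in the comparison, so the values bear on genotype under that treatment only. Usp25 encodes a protease that removes ubiquitin from proteins. How its allele was made, and whether the mice were littermates, is not given in the sources used here.

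The phagocyte oxidase, NADPH oxidase 2, passes electrons from NADPH across a membrane to oxygen and so makes superoxide, which neutrophils and macrophages use against microbes. Its membrane core is the pair of Cybb (gp91phox, the catalytic chain) and Cyba (p22phox, its stabilizing partner). On activation cytosolic subunits such as Ncf1 (p47phox, the organizer) and Ncf4 (p40phox, which binds a phagosome lipid) join the core together with the GTPase Rac2. Superoxide dismutases turn superoxide into hydrogen peroxide, with Sod1 in the cytosol, Sod2 in mitochondria and Sod3 outside the cell. Duox2 is an epithelial oxidase of gut, airway and thyroid that releases hydrogen peroxide and needs the maturation factor Duoxa2.

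In the mm9 build (Gencode annotation) all 9 genes are protein-coding. Cybb lies on chromosome X from 9012378 to 9064897, Cyba on chromosome 8 from 124948672 to 124956840 and Ncf1 on chromosome 5 from 134695923 to 134705495, all on the minus strand. Ncf4 (78075231 to 78093010, plus strand) and Rac2 (78389599 to 78403213, minus strand) are both on chromosome 15. Sod1 lies on chromosome 16 from 90220987 to 90226567, Sod2 on chromosome 17 from 13200705 to 13210985 and Sod3 on chromosome 5 from 52755185 to 52762644, all on the plus strand. Usp25 itself shares chromosome 16 with Sod1, from 77014314 to 77117024 on the plus strand. Duox2 lies on chromosome 2 from 122104983 to 122124185 on the minus strand. Ncf1 overlaps Gtf2ird2 on the opposite strand, and whether strand was used in counting is not given in the sources used here. Gtf2ird2 stood at 7.53, 3.49, 2.98 and 2.37 FPKM in the 4 mice. Cyba overlaps the predicted gene Gm20388 on the opposite strand.

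Promoter sequences from RefSeq (build GRCm38.p6, not the build of the gene positions above) were at hand for 6 of the 9 genes, Cybb, Cyba, Ncf1, Duox2, Sod1 and Sod2. Those of Cybb, Ncf1, Cyba, Sod1 and Sod2 are shown because these genes carry the contrasts between mice described next. Each run holds 250 bases before the transcription start and 50 from it on. Capitals mark matches, on either strand, to the PU.1 core GAGGAA, the antioxidant element TGACNNNGC or the AP-1-like pattern TGANTCA. That last pattern takes any middle base, so it is looser than an AP-1 site. The windows are chrX:9469275-9469574 (minus strand) for Cybb, chr5:134229576-134229875 (minus strand) for Ncf1 and chr8:122432891-122433190 (minus strand) for Cyba. Those of the dismutases are chr16:90220512-90220811 (plus strand) for Sod1 and chr17:13007589-13007888 (plus strand) for Sod2.
Cybb promoter: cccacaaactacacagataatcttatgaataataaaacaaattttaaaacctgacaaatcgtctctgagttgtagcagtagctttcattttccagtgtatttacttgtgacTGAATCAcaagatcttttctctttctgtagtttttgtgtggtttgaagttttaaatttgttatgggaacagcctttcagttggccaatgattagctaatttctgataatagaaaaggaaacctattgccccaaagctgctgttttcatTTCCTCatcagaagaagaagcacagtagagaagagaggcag
Ncf1 promoter: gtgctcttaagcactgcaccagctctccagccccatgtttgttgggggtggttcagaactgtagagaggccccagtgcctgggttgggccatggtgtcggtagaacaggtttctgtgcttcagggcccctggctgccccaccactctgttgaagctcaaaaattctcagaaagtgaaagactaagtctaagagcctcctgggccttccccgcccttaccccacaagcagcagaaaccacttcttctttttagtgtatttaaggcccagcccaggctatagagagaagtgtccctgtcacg
Cyba promoter: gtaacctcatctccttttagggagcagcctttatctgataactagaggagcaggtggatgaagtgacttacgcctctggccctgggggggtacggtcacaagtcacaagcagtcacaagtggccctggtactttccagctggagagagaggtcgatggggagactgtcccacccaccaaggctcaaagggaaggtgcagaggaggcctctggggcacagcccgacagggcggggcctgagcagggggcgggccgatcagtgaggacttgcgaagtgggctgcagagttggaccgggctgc
Sod1 promoter: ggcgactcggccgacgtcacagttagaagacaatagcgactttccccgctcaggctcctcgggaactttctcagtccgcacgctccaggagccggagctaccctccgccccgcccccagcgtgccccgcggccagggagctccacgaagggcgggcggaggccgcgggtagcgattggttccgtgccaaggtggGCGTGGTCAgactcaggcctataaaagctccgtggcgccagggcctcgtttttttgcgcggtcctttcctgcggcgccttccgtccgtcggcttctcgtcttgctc
Sod2 promoter: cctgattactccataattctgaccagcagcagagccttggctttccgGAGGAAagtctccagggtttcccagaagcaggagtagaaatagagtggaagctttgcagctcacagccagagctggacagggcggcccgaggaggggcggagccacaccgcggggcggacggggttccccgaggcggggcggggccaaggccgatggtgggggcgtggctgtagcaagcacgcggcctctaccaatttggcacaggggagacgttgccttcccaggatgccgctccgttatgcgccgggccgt

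The Cybb window holds a PU.1 core at position 10, on the opposite strand, counting the first transcribed base as 1. It also holds a match to the AP-1-like pattern, TGAATCA, at position -139. Sod2 has a PU.1 core at position -203, and Sod1 has an antioxidant element at position -56 on the opposite strand. The windows of Ncf1, Cyba and Duox2 contain none of these letters. Among all 32851 promoter windows from RefSeq, 28.3% hold the PU.1 core, 12.4% the antioxidant element and 7.8% the AP-1-like pattern, so single matches are common. The searched motifs do not overlap each other in these windows. Base composition differed among them. Cybb has a GC content of 35.3%, and 4.0% of all windows are lower, whereas Sod1 has 66.7% and Sod2 64.3% against a median of 52.7% over all windows.

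Levels are given as FPKM, fragments scaled to transcript length and library size, which allows comparison between genes. The read depth of the libraries is unknown. Between 11656 and 12058 genes reached 1 FPKM in each library, while 3862 genes were listed at 0 in mouse WT-139 and 7175 to 8813 in the others. Usp25 followed the genotype labels, with 38.5 and 16.6 against 2.65 and 1.71 FPKM. The labelled tissue is colon, yet 10 of 16 colon epithelial markers stayed below 1 FPKM in all 4 libraries, and Cdx1, Zg16 and Aqp8 were listed at 0 in each. The 16 summed to 12.6 and 17.9 against 176 and 57.5 FPKM. Lgals4, Krt20, Phgr1 and Guca2a, the 4 of highest mean FPKM, had both Usp25-/- mice above both Usp25+/+ mice, an order of 19.0% of all tested genes. Lgals4 stood at 7.04 and 9.83 against 70.6 and 28.8 FPKM. Markers of lung epithelium summed to 2593 to 5646 FPKM and those of alveolar macrophages to 7926 to 11904 FPKM. Mouse WT-139 stood apart, with correlations of 0.876 to 0.890 with the other 3 libraries over 12103 genes, against 0.933 to 0.968 among those. All 4 libraries carried Y-linked transcripts (Eif2s3y at 27.8 to 44.7 FPKM) and at most 0.110 FPKM of Xist, so the X-linked Cybb was read in mice alike in this respect.

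Transcripts of the phagocyte oxidase were abundant in every library, whereas the epithelial Duox2 was nearly absent. Cyba was the highest of the 9 genes in each mouse, with a median of 1120 FPKM and rank 41 among all genes by median level. Sod1 followed with a median of 239 FPKM. Ncf1, Cybb, Rac2, Sod2 and Ncf4 came next with medians of 85.7, 82.4, 50.8, 36.7 and 34.7 FPKM, and the ranges of neighbours in this order, Sod1 and Ncf1 included, overlapped. Ncf1 exceeded Cybb in 3 of 4 mice and Cybb exceeded Rac2 in 4 of 4. Sod3 had a median of 4.89 FPKM, below the lowest value of the 7 genes above it, and Duox2 a median of 0.0653 FPKM.

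**Figure D1:**
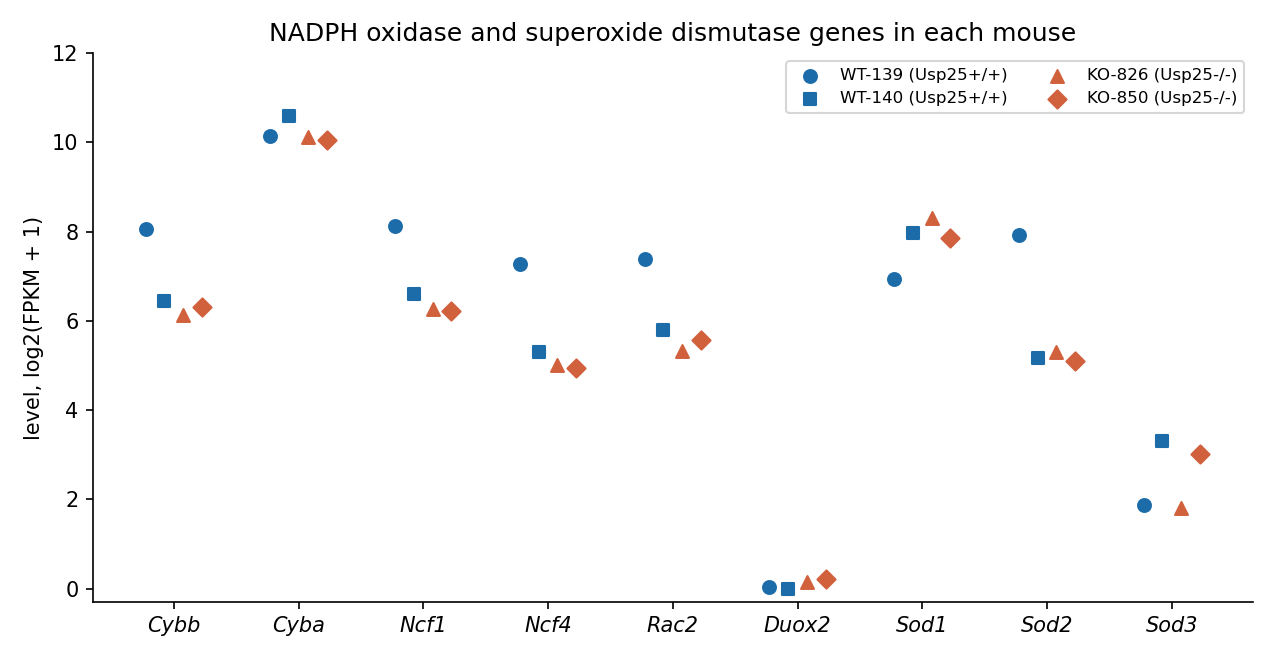
The vertical axis gives log2(FPKM + 1) for the 9 genes along the horizontal axis, and each mouse is 1 point. Mouse WT-139 lies above the other 3 mice for Cybb, Ncf1, Ncf4, Rac2 and Sod2 and below them for Sod1, while Cyba stays between 1052 and 1535 FPKM and Duox2 at or below 0.152 FPKM.

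In the membrane core, the catalytic chain Cybb was highest in mouse WT-139 and its partner Cyba was not. Cybb stood at 266 FPKM in WT-139 and 86.0 FPKM in WT-140, beside 68.9 FPKM in KO-826 and 78.8 FPKM in KO-850. Mouse WT-139 was thus 3.38 times the median of the other 3, which lie within a narrow band, and both Usp25-/- mice were below both Usp25+/+ mice. The group means were 176 ± 127 against 73.8 ± 7.02 FPKM (SD, n = 2). The log2 difference of Cybb, on the log2(FPKM + 1) scale and as Usp25-/- minus Usp25+/+, was -1.03 ± 0.58 (SE), with a Benjamini-Hochberg adjusted p of 0.968 from limma over all genes.

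Cyba stood at 1127 FPKM in WT-139 and 1535 FPKM in WT-140, beside 1113 FPKM in KO-826 and 1052 FPKM in KO-850. Here mouse WT-140 was the high library, and mouse WT-139 was at 1.01 times the median of the others. The log2 difference was -0.28 ± 0.41 (limma adjusted p = 0.968). Cyba transcript exceeded Cybb transcript by 4.23 times in mouse WT-139 and by 17.8, 16.2 and 13.3 times in the others. Cyba also serves other NADPH oxidases, and of these Nox1 and Nox3 stayed below 1 FPKM in every library, while Nox4 reached 1.14 FPKM in mouse WT-139 and at most 0.637 FPKM in the others.

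Among the cytosolic subunits, Ncf1, Ncf4 and Rac2 had mouse WT-139 far above the rest, as the catalytic chain had. Ncf1, the organizer, stood at 277 and 95.9 against 75.6 and 73.4 FPKM. Its group means were 186 ± 128 and 74.5 ± 1.55 FPKM (SD, n = 2), with a log2 difference of -1.12 ± 0.55 and an adjusted p of 0.968 (limma). Mouse WT-140 lay far nearer to the Usp25-/- mice than to mouse WT-139.

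Ncf4, the lipid-binding subunit, stood at 154 and 38.3 against 31.1 and 29.5 FPKM, so that mouse WT-139 was 4.95 times the median of the others. Its log2 difference was -1.32 ± 0.67 (limma adjusted p = 0.968). Rac2, the GTPase of blood cells, stood at 166 and 54.9 against 39.3 and 46.7 FPKM. Its log2 difference was -1.14 ± 0.57 (limma adjusted p = 0.968). In both genes the groups did not overlap, and mouse WT-140 lay much nearer to the Usp25-/- mice than to mouse WT-139.

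Rac1, the widely expressed relative of Rac2, stood at 197 and 219 against 201 and 215 FPKM, which overlap.

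For all 5 oxidase members both Usp25-/- mice were below both Usp25+/+ mice, an order that 14.7% of the 12103 tested genes shared. Of 8 general leukocyte genes, used as a reference below, 5 had the same order. None of the oxidase members passed limma's adjusted threshold of 0.05. That test called 0% of all tested genes, with 400 (3.30%) at an unadjusted p under 0.05, none of them a member. The median log2 difference of the 5 was -1.12, beside 0.034 over all tested genes. Mouse WT-139 was at least 3 times the median of the others for 4 of the 5, Cyba being the exception, and for 5.49% of all tested genes.

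For Cybb, Ncf1, Ncf4 and Rac2 the size of the difference rested on mouse WT-139. Without it, mouse WT-140 still exceeded both Usp25-/- mice for all 5, an order shown by 36.8% of tested genes. The log2 differences then were -0.22 for Cybb, -0.36 for Ncf1, -0.33 for Ncf4, -0.35 for Rac2 and -0.50 for Cyba, with limma adjusted p between 0.758 and 0.818. Without mouse WT-140 they were -1.84, -1.88, -2.31 and -1.93 for the first 4 and -0.058 for Cyba. There mouse WT-139 is the only Usp25+/+ mouse, so no spread among Usp25+/+ mice enters the fit. In that comparison 1.38% of 11793 genes were called.

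**Figure D2:**
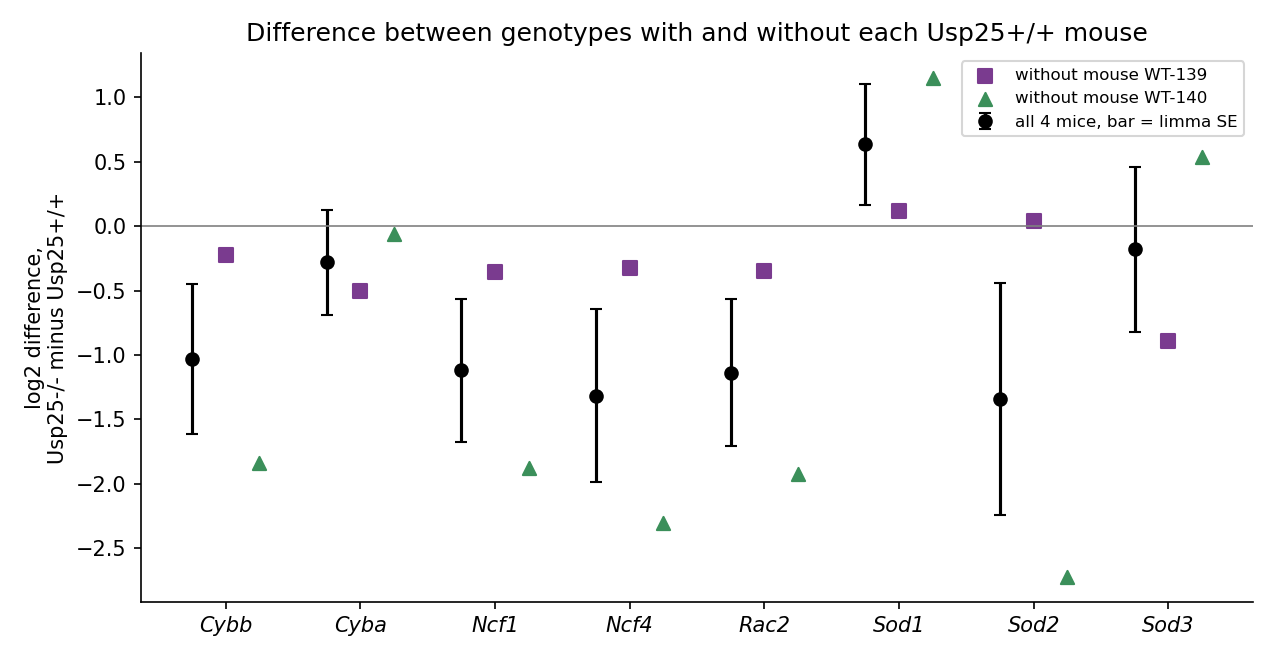
Log2 difference between the genotypes (Usp25-/- minus Usp25+/+, on the log2(FPKM + 1) scale) for the 8 genes with a test, with black points and SE bars for all 4 mice, squares without mouse WT-139 and triangles without mouse WT-140. Without mouse WT-139 the values of Cybb, Ncf1, Ncf4 and Rac2 shrink to between -0.36 and -0.22, and that of Sod2 is 0.041.

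Neutrophil markers separated the same mouse, by more. The 15 neutrophil genes in the table summed to 42278 FPKM in mouse WT-139 and to 852, 2164 and 1312 FPKM in the others. None of them was listed at 0 in all mice, and 14 of 15 were at least 3 times the median of the others in mouse WT-139, with a median ratio of 28.5. Cxcr1 was the exception. The 14 monocyte and macrophage markers summed to 16948 FPKM in mouse WT-139 and to 34002 to 41272 FPKM in the others, largely through Lyz2. Of these, 2 were at least 3 times the median of the others in mouse WT-139, Cd14 (3392 FPKM, beside 673, 1493 and 637 FPKM) and Ly6c2 (88.0 FPKM, beside 22.8, 25.4 and 23.8 FPKM). The median level of the 14 was 64.8 FPKM in mouse WT-139 and 59.9 to 89.5 FPKM in the others. The median ratio of their 13 tested genes was 0.84, and that of the 12 alveolar macrophage markers 0.70, beside 0.91 over all tested genes. The part of these cell types in the oxidase values was not tested, and in bulk RNA fewer cells of a type and less RNA per cell cannot be told apart.

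**Figure D3:**
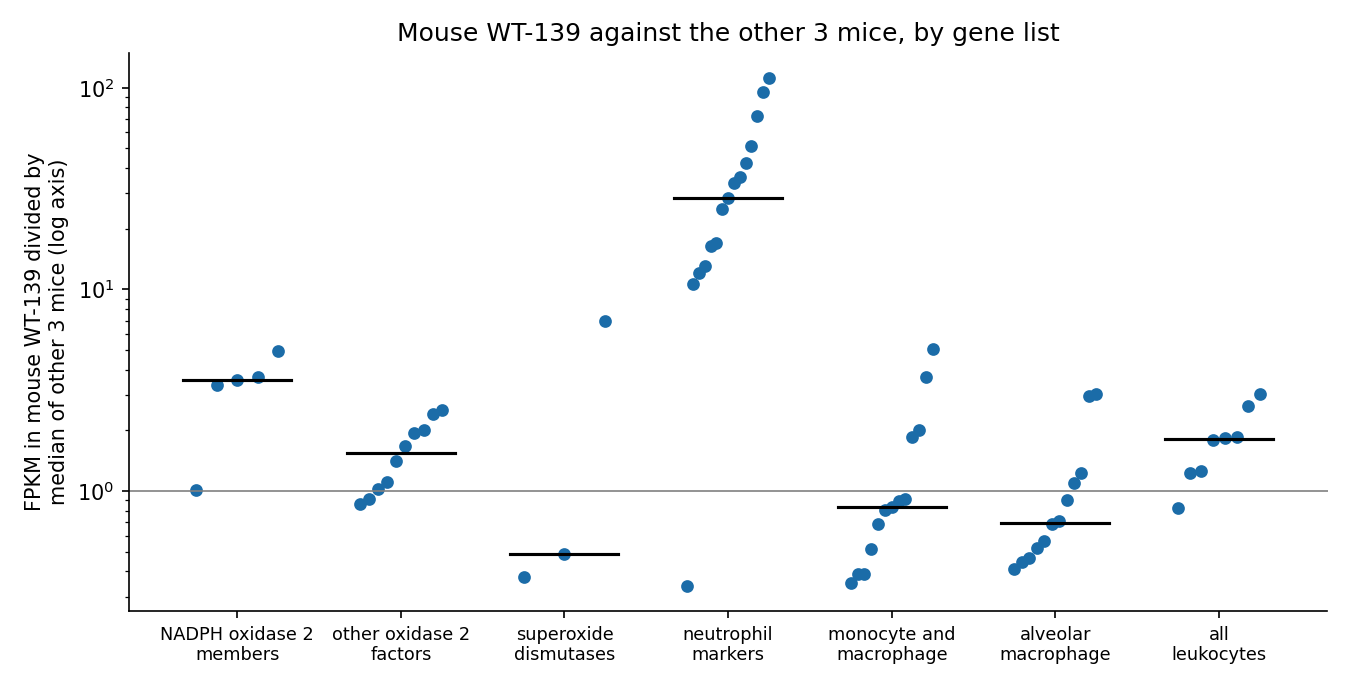
FPKM in mouse WT-139 divided by the median of the other 3 mice, on a log axis, with 1 point for each tested gene and a bar at the median of each list. The NADPH oxidase 2 members have a median of 3.55 with Cyba near 1, the neutrophil markers a median of 28.5 and the macrophage lists medians below 1. The median over all tested genes, not drawn, is 0.91.

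Set against general leukocyte genes in the same library, the 5 oxidase members overlapped between the genotypes. The reference was the mean log2(FPKM + 1) of 8 leukocyte genes, among them Ptprc, Itgb2, Laptm5, Lcp1 and Cd53. In mouse WT-139 Cd53 and Lcp1 were 3.04 and 1.87 times the median of the others, and Itgb2 and Laptm5 were 1.24 and 0.82 times. All 8 had negative log2 differences, with a median of -0.71, and for 5 of them both Usp25-/- mice were below both Usp25+/+ mice. Cybb lay 0.072 above this mean in mouse WT-139 and at -1.16, -0.84 and -0.91 relative to it in the others. Ncf1, Ncf4 and Rac2 were likewise highest in mouse WT-139 on this scale, and Cyba was lowest there. Rac1 lay at -0.36 and 0.17 against 0.69 and 0.53, so that its groups did not overlap on this scale. The leukocyte mean itself stood at 7.99 and 7.61 against 6.97 and 7.23, while Rac1 in FPKM overlapped between the genotypes. These relative values are given without a test.

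Within a library the 4 subunits Cybb, Ncf1, Ncf4 and Rac2 kept similar proportions. Ncf1 was 0.931 to 1.11 times Cybb in FPKM, and Rac2 was 0.571 to 0.638 times Cybb. Ncf4 was 0.579 times Cybb in mouse WT-139 and 0.374 to 0.452 times in the others. Rac1, by contrast, was 0.742 times Cybb in mouse WT-139 and 2.54 to 2.92 times in the others.

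**Figure D4:**
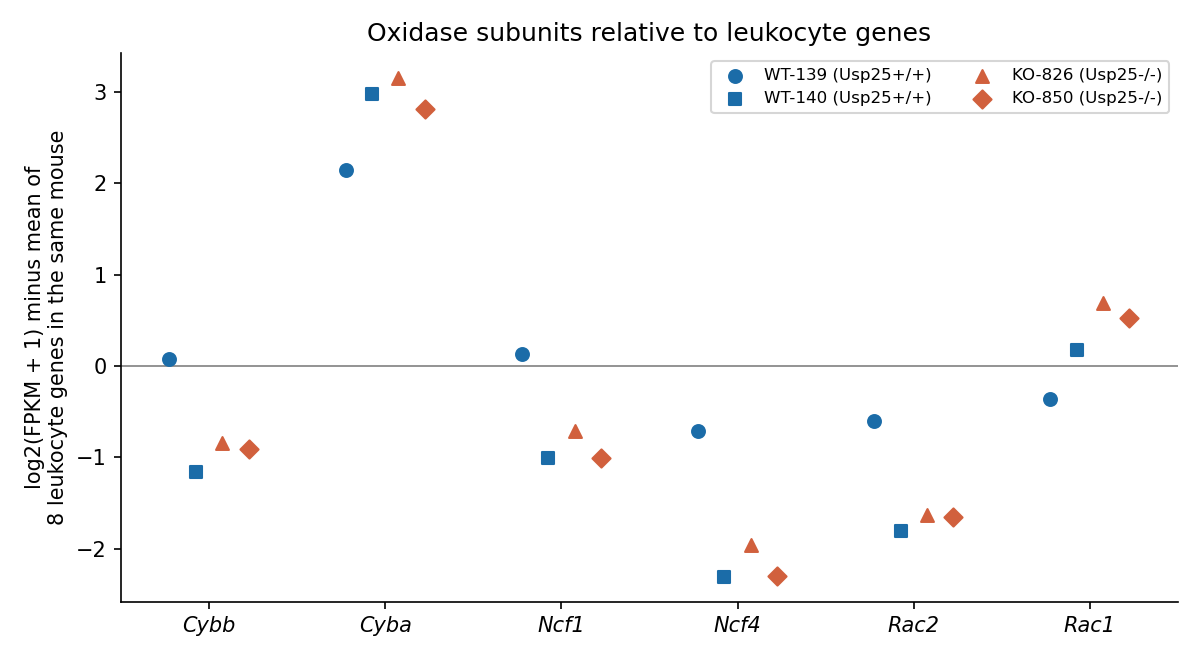
Level of each oxidase subunit relative to leukocyte genes, as log2(FPKM + 1) minus the mean of 8 leukocyte genes in the same mouse, with 1 point for each mouse. Cybb, Ncf1, Ncf4 and Rac2 are highest in mouse WT-139, where Cyba and Rac1 are lowest, and the genotypes overlap for all but Rac1. The leukocyte mean is lower in both Usp25-/- mice, while Rac1 in FPKM overlaps between the genotypes.

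Genes whose pattern over the 4 mice lay nearest to Cybb were Prkd3, Rac2, Parp10, Prnp and Snap23, out of 7760 tested genes with a mean of at least 5 FPKM. Likeness was the root mean square difference of centred log2(FPKM + 1) values, and it was 0.034 to 0.074 for these 5. Prkd3, a protein kinase, stood at 21.7, 6.22, 5.12 and 6.02 FPKM. The likeness rests on 4 libraries only.

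Duox2 was listed at 0 in mouse WT-140 and stood at 0.0303 FPKM in mouse WT-139, 0.1004 FPKM in mouse KO-826 and 0.152 FPKM in mouse KO-850. These levels missed the filter of 1 FPKM in 2 mice, so Duox2 has no test, and no fold is given. Duoxa2, its maturation factor, was likewise low, at 0.189 and 0 against 0.769 and 0.241 FPKM. Both genes had their higher values in the Usp25-/- mice, an order of 19.0% of the tested genes, to which neither belongs. At such levels an FPKM of 0 may mean too few reads. Markers of epithelium in general summed to 957 and 827 against 3677 and 1393 FPKM. Their part in the Duox2 values was not tested. Duox2 hardly varied in log2(FPKM + 1), and the genes nearest to it in pattern, Ube2a, Sucla2, Tmem199, Dnajb4 and Ipo5, were nearly flat too, with root mean square differences of 0.016 to 0.022.

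The dismutases did not move together. Sod1, the cytosolic copper and zinc enzyme, was lowest in mouse WT-139, at 121 FPKM, and reached 248, 316 and 230 FPKM in the others. The groups overlapped, at means of 184 ± 89.9 and 273 ± 60.3 FPKM (SD, n = 2), and the log2 difference was 0.64 ± 0.47 (limma adjusted p = 0.968). Without mouse WT-139 it was 0.12.

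Sod2 is the mitochondrial manganese enzyme and a known target of inflammatory signalling. On the log2(FPKM + 1) scale it showed the widest spread among the 8 genes with a test. Its level was 243 FPKM in mouse WT-139, 34.8 FPKM in WT-140, 38.6 FPKM in KO-826 and 33.3 FPKM in KO-850. Mouse WT-139 was 6.97 times the median of the others, and mouse WT-140 lay between the Usp25-/- mice. The log2 difference was -1.34 ± 0.90 (limma adjusted p = 0.968). It turned to 0.041 without mouse WT-139. Without mouse WT-140 it was -2.73, in a fit where mouse WT-139 is the only Usp25+/+ mouse. Sod1 transcript exceeded Sod2 transcript by 7.13, 8.18 and 6.92 times in 3 mice, while the ratio of Sod1 to Sod2 was 0.498 in mouse WT-139.

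Sod3, the secreted enzyme, stood at 2.67 and 8.90 against 2.49 and 7.11 FPKM. Each genotype thus held 1 low and 1 high library, and the log2 difference was -0.18 ± 0.64 (limma adjusted p = 0.984). Its sign depended on the mice used, with -0.90 without mouse WT-139, 0.53 without mouse WT-140 and 0.43 without mouse KO-826.

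Other genes of the oxidase and of oxidant removal were read from 5 further lists. Of 10 further oxidase assembly factors, 0 were called by limma, 0 had an unadjusted p under 0.05 and 7 had negative log2 differences, beside 46.4% of all tested genes. For 6 of the 10 both Usp25-/- mice were below both Usp25+/+ mice, beside 14.7% of all tested genes. The median log2 difference of the 10 was -0.54, and -0.34 without mouse WT-139. Vav1, an exchange factor that activates Rac proteins, stood at 66.1 and 33.6 against 21.2 and 26.2 FPKM. Prkcd, a kinase that phosphorylates Ncf1, stood at 113 and 72.2 against 50.1 and 57.8 FPKM. Hvcn1, the proton channel that balances the charge moved by the oxidase, stood at 78.4 and 110 against 57.5 and 70.9 FPKM. Arhgdib, which holds Rac proteins in the cytosol, and Dock2, a Rac exchange factor, had log2 differences of -0.54 ± 0.34 and -0.62 ± 0.32. Rap1a, a small GTPase found with the membrane core, stood at 53.9 and 52.3 against 48.8 and 62.5 FPKM, which overlap.

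Of 8 other oxidases, organizers and dual oxidase factors, 1 reached the filter and 0 were called. Noxo1, the organizer of the epithelial Nox1 oxidase, stood at 4.13 and 1.32 against 13.3 and 3.72 FPKM, which overlap. Its highest value was in mouse KO-826, the library with the highest sum of epithelial markers, and the part of epithelium in it was not tested. Noxa1 reached at most 1.43 FPKM and Duoxa1 at most 0.564 FPKM.

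Of 14 genes of peroxide removal, the copper chaperone Ccs of Sod1 included, 0 were called and 1 had an unadjusted p under 0.05. Of their log2 differences 10 were positive and 4 negative, beside 46.4% negative over all tested genes. Their median log2 difference was 0.17, and it was 0.018 without mouse WT-139 and 0.71 without mouse WT-140. For 4 of 14 both Usp25-/- mice were above both Usp25+/+ mice, an order of 19.0% of all tested genes. The gene with the small p was Gpx2, an epithelial glutathione peroxidase, at 21.2 and 14.1 against 69.9 and 35.0 FPKM (log2 difference 1.47 ± 0.44, limma adjusted p = 0.968). Of 10 markers of epithelium in general, 8 likewise had both Usp25-/- mice above both Usp25+/+ mice, with a median log2 difference of 1.31 and the highest sum in mouse KO-826. Their part in the Gpx2 values was not tested. Prdx1 stood at 660 and 901 against 1198 and 1010 FPKM, Prdx2 at 99.3 and 203 against 267 and 213 FPKM, and both are cytosolic peroxiredoxins. The mitochondrial Prdx3 stood at 35.6 and 47.8 against 66.4 and 56.7 FPKM. Prdx5, a further peroxiredoxin, was highest in mouse WT-139, at 1870 FPKM there and 448 to 713 FPKM in the others. The glutathione peroxidases Gpx1 and Gpx4 were lowest in mouse WT-139, at 565 and 235 FPKM, as Sod1 was.

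Of 16 genes of the thioredoxin and glutathione systems and NRF2 targets, 0 were called. Of their log2 differences 9 were positive and 7 negative, beside 46.4% negative over all tested genes, and the median was 0.11. For 2 of 16 both Usp25-/- mice were above both Usp25+/+ mice, an order of 19.0% of all tested genes. They were Gclc and Gss, enzymes of glutathione synthesis. Gclc stood at 69.3 and 66.5 against 206 and 110 FPKM, with an unadjusted p of 0.0347 and a limma adjusted p of 0.968. Gss stood at 5.37 and 10.8 against 22.6 and 12.3 FPKM. Txnip, an inhibitor of thioredoxin, stood at 212 and 241 against 89.6 and 178 FPKM. Txn1, Hmox1, Nfe2l2 and Gsr, the most abundant others, overlapped between the genotypes. Their log2 differences lay between -0.36 and 0.30.

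Of 6 other enzymes that make oxidants, 3 reached the filter and 0 were called. The median log2 difference of these 3 was -1.01, and with 1 mouse left out it lay between -1.36 and -0.30, nearest to 0 without mouse WT-139. Nos2, the inducible nitric oxide synthase, reached 67.7 FPKM in mouse WT-139 and 1.44, 0.501 and 1.61 FPKM in the others. Mouse WT-139 was thus 47.1 times the median of the others, against 6.97 times for Sod2. Xdh, the xanthine oxidoreductase, stood at 34.4 and 25.8 against 11.0 and 18.4 FPKM, with an unadjusted p of 0.0383 and a limma adjusted p of 0.968. Aox1 stood at 3.08 and 1.70 against 3.26 and 2.97 FPKM. Mpo, the peroxidase of neutrophil granules made early in their development, did not exceed 0.404 FPKM in any library, mouse WT-139 included.

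**Figure D5:**
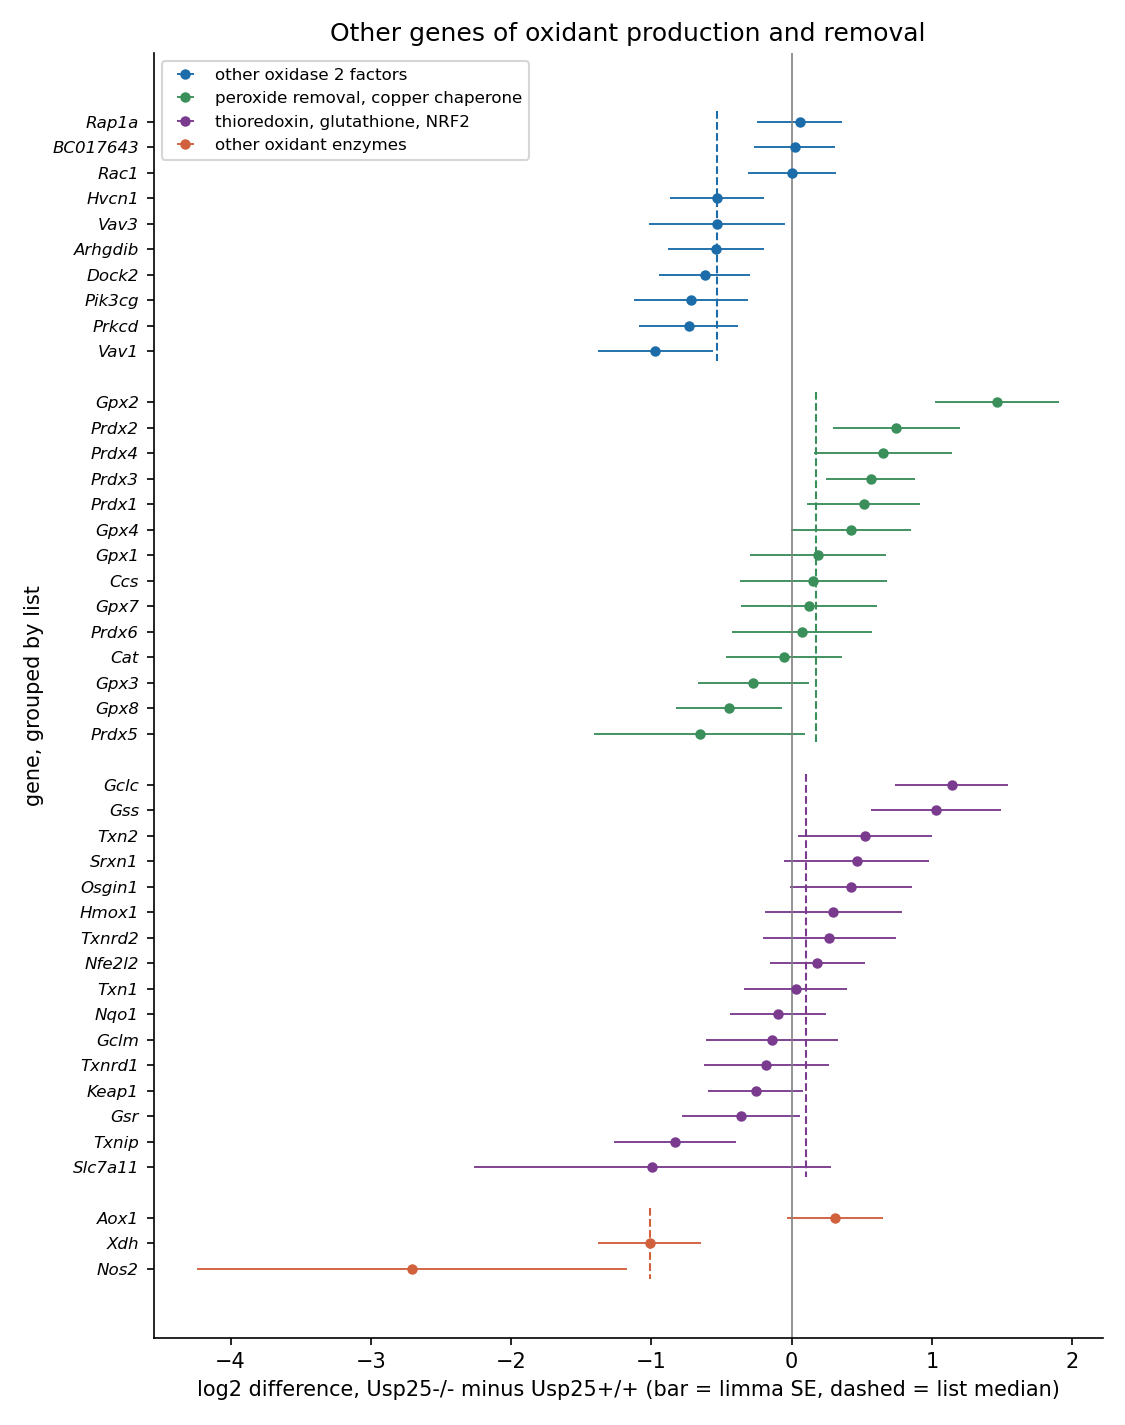
Log2 difference between the genotypes (Usp25-/- minus Usp25+/+) for the tested genes of 4 lists, with SE bars from limma and a dashed line at the median of each list. Medians are -0.54 for further oxidase factors, 0.17 for peroxide removal, 0.11 for thioredoxin, glutathione and NRF2 genes and -1.01 for 3 other oxidant enzymes, and 0 genes were called.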

How the data were processed

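PolyA RNA from the labelled colon of 4 mice was sequenced, and the authors deposited 1 table of FPKM values with a column for each mouse. Bowtie 0.12.2 and mm9 come from the submitters' processing notes. What computed FPKM, with which annotation, filters and strand setting, is not given in the sources used here. Depth is unknown, so no counting interval is given. Of 24421 rows, 27 with symbols turned into dates were left out. Genes with an FPKM of at least 1 in 2 or more mice (12103) were analysed as log2(FPKM + 1), which understates changes of low genes, and 8 of the 9 members passed. Usp25-/- was compared with Usp25+/+ by limma 3.58.1 in R 4.3.3 (two-sided, mean-variance trend, Benjamini-Hochberg over all tested genes, threshold 0.05) after testing on simulated data. An exact permutation test of 2 against 2 mice cannot go below p = 0.333 and was not run. P-values cover only the spread among these 4 mice, and no batch or pairing is recorded.

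Lists hold 180 genes, 178 of them in the table. Genes named from a list were drawn from its 5 (markers: 4) of highest mean FPKM and, for pathways, 3 of smallest p. Not every such gene is named. Duoxa2 and Usp25 were always named, as were the 5 genes nearest in pattern to Cybb and to Duox2. Nox1, Gtf2ird2, Gm20388, Nox3, Cxcr1, Ly6c2, the markers listed at 0, Ptprc, Ccs and the sex-linked genes Xist and Eif2s3y were added after their values were seen. The members and lists were chosen with earlier results of these data known. Python 3.11.15, pandas 2.3.3 and matplotlib 3.10.9 served for annotation and plots. Protein sequences were not used here, and 1 further gene of the lists is not reported here. Alternatives covered pseudocount, filter, scaling, variance model and leaving out each mouse.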

Additional observations from a re-analysis of the deposited data

How the results depend on the processing

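Under a pseudocount of 0.1, no filter, scaling to a common total, median-of-ratios scaling and limma without the trend, limma called 0 genes and 0 members, and all 8 member differences kept their sign. With 1 mouse left out, 0 to 163 genes and 0 to 2 members were called, the highest counts without mouse WT-140, when 150 of the 163 were lower in Usp25-/- mice. The members called were Ncf4 and Sod2, with log2 differences of -2.31 and -2.73. Over the 4 fits with a mouse left out the log2 difference ranged from -1.84 to -0.22 for Cybb, -0.50 to -0.058 for Cyba, -1.88 to -0.36 for Ncf1, -2.31 to -0.33 for Ncf4, -1.93 to -0.35 for Rac2, 0.12 to 1.15 for Sod1, -2.73 to 0.041 for Sod2 and -0.90 to 0.53 for Sod3. The sign changed for Sod2 without mouse WT-139 (0.041) and for Sod3 without mouse WT-140 (0.53) or KO-826 (0.43). In such a fit the lone mouse of a genotype is taken to vary like the other genotype.

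Among list medians, 4 of 45 recalculated values changed sign and 2 others moved by more than the spread between mice, to -0.30 for other oxidant enzymes without mouse WT-139 and to 0.71 for peroxide removal without mouse WT-140. Without a filter that of the other NADPH oxidases was -0.0096 and that of other oxidant enzymes 0.022, as more low genes entered. With a mouse left out the median for thioredoxin, glutathione and NRF2 genes ranged from -0.085 (without mouse KO-826) to 0.33. It was -0.028 without mouse WT-140, and the cause was not tested. Without mouse WT-140, 1 list gene outside the members was called among other oxidant enzymes, Nos2. Levels near 0, such as those of Duox2, are limited by a depth that is unknown.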
